A study of Rattus norvegicus with 11 samples.

Results

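The 10 genes considered encode enzymes that place repressive methyl groups on histone H3 and the Polycomb proteins that work with them: Ezh1, Ezh2, Eed and Suz12 for the lysine called H3K27, and Suv39h1, Suv39h2, Setdb1, Setdb2, Ehmt1 and Ehmt2 for the lysine called H3K9. They were chosen by symbol, and the probe with the highest mean stood for each gene. Of the 10, 8 had a probe with a single gene symbol, among 14324 genes measured in this way. Setdb1 and Suz12 were not analysed here. Islets came from female Sprague-Dawley rats at 13 weeks of age. The 5 HFD-father arrays hold RNA of daughters whose fathers ate a high-fat diet (43% fat), and the 6 chow-father arrays that of daughters whose fathers ate chow (9% fat). All fathers were mated at 15 weeks with chow-fed females, and all daughters were weaned onto chow at 3 weeks, so no daughter ate the high-fat diet. The labels give no separate rat, litter or father for each array, and p-values therefore measure only the spread between these arrays, part of which may be technical.

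Methylation of H3K27 is written by Polycomb repressive complex 2 (PRC2), in which Ezh2 or Ezh1 is the catalytic subunit, Eed binds the finished mark and stimulates the enzyme, and Suz12 holds the complex together. Ezh2 is typical of dividing cells and Ezh1 of resting ones. In mouse beta cells Ezh2 is known to hold the cell cycle inhibitor gene Cdkn2a silent in early life. Methylation of H3K9 is written by several enzymes: Suv39h1 and Suv39h2 trimethylate it in constitutive heterochromatin, Ehmt1 (GLP) and Ehmt2 (G9a) form a dimer that places mono- and dimethyl marks in euchromatin, and Setdb1 and Setdb2 carry a SET domain split by an insertion.

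Promoters are shown for the gene with the largest group difference (Suv39h1), for the pair of genes with the highest correlation across arrays (Eed and Suv39h2) and for the proliferation-linked catalytic subunit (Ezh2). Each runs 5′ to 3′ from 250 bases before to 50 bases after the first transcription start that RefSeq lists (build GRCr8). Capitals mark matches on either strand to the E2F letters TTTCCCGC, TTTGGCGC, TTTCGCGC or TTTGCCGC, the NFY letters CCAAT, or the ETS letters CCGGAAGT, which do not overlap each other in these windows.
Suv39h1, chrX:17092809-17093108, + strand: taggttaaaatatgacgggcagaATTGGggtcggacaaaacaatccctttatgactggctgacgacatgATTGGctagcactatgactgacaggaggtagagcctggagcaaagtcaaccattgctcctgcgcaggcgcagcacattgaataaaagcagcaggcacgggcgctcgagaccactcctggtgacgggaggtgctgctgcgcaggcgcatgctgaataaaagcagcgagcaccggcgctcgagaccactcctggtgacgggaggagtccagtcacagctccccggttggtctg
Ezh2, chr4:77687134-77687433, - strand: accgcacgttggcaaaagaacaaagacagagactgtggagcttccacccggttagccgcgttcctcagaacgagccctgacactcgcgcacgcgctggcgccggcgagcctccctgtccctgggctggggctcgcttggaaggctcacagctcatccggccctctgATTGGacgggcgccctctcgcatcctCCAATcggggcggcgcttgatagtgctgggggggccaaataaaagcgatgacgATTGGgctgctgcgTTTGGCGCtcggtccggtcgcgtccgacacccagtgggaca
Eed, chr1:153307451-153307750, - strand: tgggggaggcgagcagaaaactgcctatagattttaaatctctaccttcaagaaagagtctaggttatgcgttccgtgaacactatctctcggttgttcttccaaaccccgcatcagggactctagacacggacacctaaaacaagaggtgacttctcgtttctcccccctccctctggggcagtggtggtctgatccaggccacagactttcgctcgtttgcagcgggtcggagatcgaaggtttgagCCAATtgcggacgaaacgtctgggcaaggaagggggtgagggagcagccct
Suv39h2, chr17:79665217-79665516, + strand: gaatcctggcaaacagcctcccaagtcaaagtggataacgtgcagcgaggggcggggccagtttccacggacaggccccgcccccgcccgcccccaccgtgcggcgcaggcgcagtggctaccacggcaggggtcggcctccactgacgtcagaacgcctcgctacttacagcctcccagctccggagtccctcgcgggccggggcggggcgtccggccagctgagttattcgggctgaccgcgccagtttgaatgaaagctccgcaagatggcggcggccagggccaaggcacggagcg

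Of the 4 promoters shown, only that of Ezh2 held a match to the E2F letters, which 2.25% of 27457 RefSeq promoters of the same length held. CCAAT was matched 3 times in the Ezh2 promoter, 2 times in that of Suv39h1 and 1 time in that of Eed, and 37.7% of all promoters held it. RefSeq lists another start of Suv39h1, not shown, whose window held CCAAT 1 time, so the Suv39h1 count depends on the start. The Suv39h2 window held none of the letters searched. The ETS letters were found in 4.01% of all promoters and an exact string for the factor NRF1 in 0.932%. Neither was found in these 4. The NRF1 search allowed no other letter at any position, so it cannot show that variants of its string are absent. A match describes the letters only.

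The arrays were alike in scale. Medians lay between 6.137 and 6.202 on the log2 scale, and correlations between pairs of arrays between 0.9869 and 0.995. The values had been centred separately in a set of 8 arrays (4 per group) and a set of 3 (HFD-father 5, chow-father 5 and 6). Within the set of 3 the HFD-father arm has 1 array, so its differences have no replicate. Islet hormone genes were bright, with Ins1 at 14.27 in HFD-father and 14.26 in chow-father arrays. Digestive enzyme genes were also bright. Ctrb1 averaged 14.24 in HFD-father and 14.17 in chow-father arrays, and Cela1 13.59 and 13.24. Exocrine RNA was thus a large part of the signal in both groups. Of 17 acinar markers measured, 16 were higher in HFD-father arrays, against 51.9% of all genes. An unadjusted p under 0.05 (limma) was found for 0 of the 17, against 8.25% of all genes. The summed level of the acinar markers ran from 17.37 to 17.79 in HFD-father and from 16.72 to 17.77 in chow-father arrays on the log2 scale. Of the other cell types, 7 of 8 endothelial, 9 of 11 lymphocyte, 7 of 12 macrophage, 7 of 9 stellate and fibroblast and 2 of 4 ductal markers had higher means in HFD-father arrays, again with 0 at an unadjusted p under 0.05. Schwann markers differed from these lists, with 4 of 6 at an unadjusted p under 0.05 (limma), against 8.25% of all genes. Their probes were dim or of middle brightness, with 10.4% to 52.3% of all probes below them, which limits what these values can show. The summed lymphocyte signal ran from 8.79 to 9.76 in HFD-father and from 8.78 to 8.91 in chow-father arrays, and the summed macrophage signal from 9.51 to 10.63 in HFD-father and from 9.44 to 10.14 in chow-father arrays. Both upper ends came from HFD-father 1, and the other HFD-father arrays reached 9.01 for lymphocyte and 9.99 for macrophage markers. The macrophage list includes Ptprc, which lymphocytes also carry, so its sum is not of macrophages alone. Ptprc ran from 5.72 to 9.09 in HFD-father and from 5.62 to 6.65 in chow-father arrays. Of 9 islet hormone markers 3 were higher in HFD-father arrays, with a median difference of -0.001. The summed level of the islet hormone markers ran from 16.45 to 16.68 in HFD-father and from 16.5 to 16.76 in chow-father arrays. In bulk RNA, fewer cells of a type and less RNA per cell cannot be told apart.

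The repressive methyltransferase genes lay at similar levels in the islets of both groups, with Suv39h1 as the exception in size. The lower Suv39h1 signal in HFD-father arrays was seen with 1 of its 2 probes. Limma called 0 of the 8 members at an adjusted p under 0.05, and 0% of all genes. At an unadjusted p under 0.05, 1 of 8 members passed (Suv39h1), against 8.25% of all genes. Its direction was lower in HFD-father arrays, which 5.28% of all genes shared at that threshold, and 0 members passed with higher values, against 2.97% of all genes. At an unadjusted p under 0.01 the member count was again 1, against 1.83% of all genes. Of the genes at an unadjusted p under 0.05, the share that was lower in HFD-father arrays moved with the scaling, and was 64% as deposited and 37.2% after median centring. In no member were the groups without overlap, which held for 0.887% of all genes. In HFD-father arrays 6 of the 8 members had the higher mean and 2 the lower one, with a median difference of 0.03 against 0.004 over all genes, of which 51.9% were higher.

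**Figure D1:**
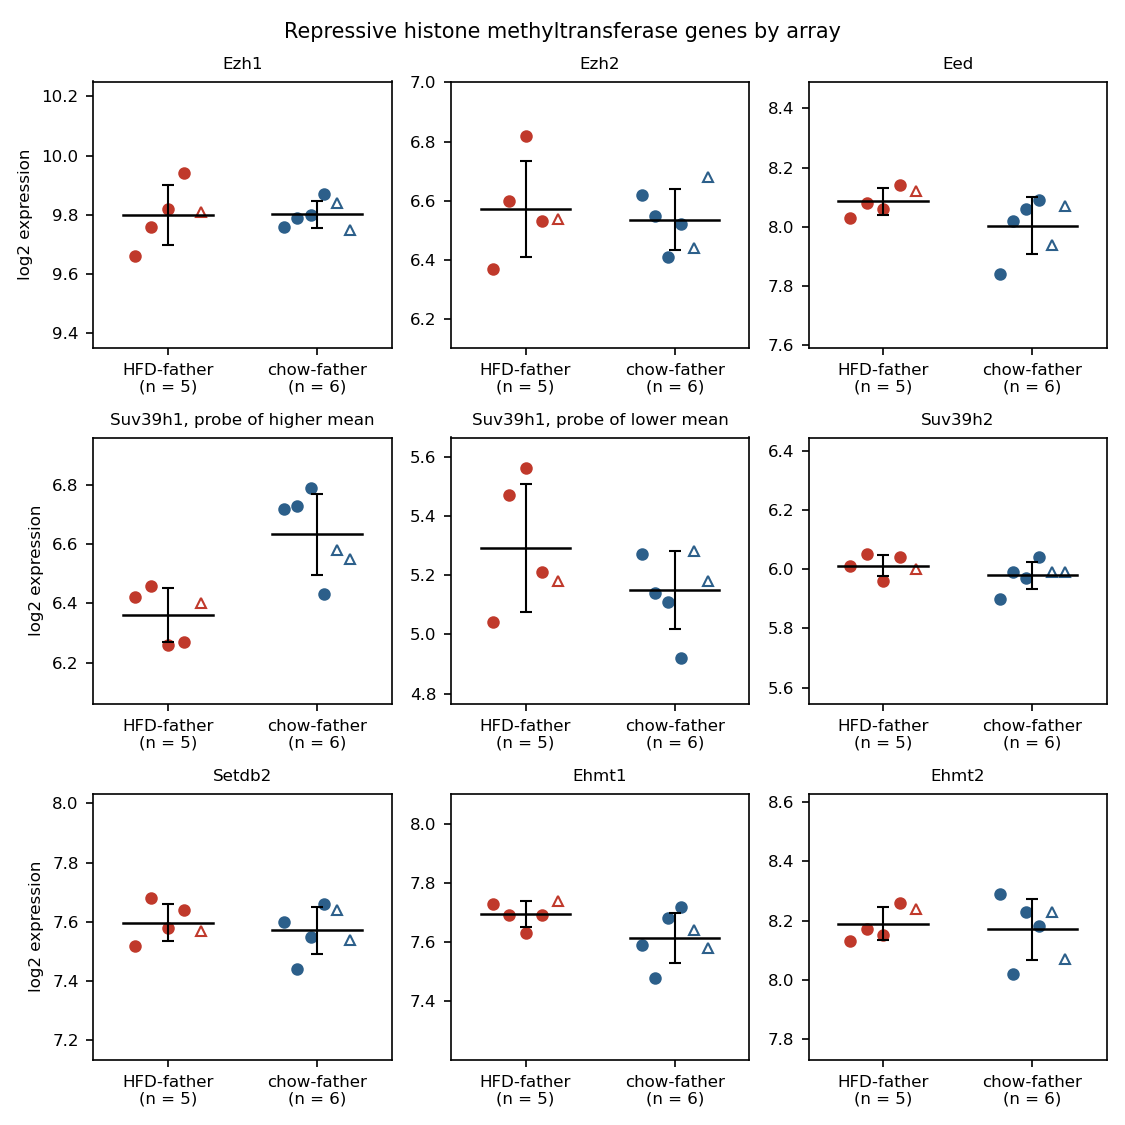
Log2 expression of the 8 measured members by array, with both probes of Suv39h1, for HFD-father (red, n = 5) and chow-father (blue, n = 6) arrays; lines and bars are means and SD, and open triangles mark the set of 3 arrays centred separately. Each panel spans the same log2 range. The groups overlap in every panel and lie farthest apart for the Suv39h1 probe of higher mean, with averages of 6.36 in HFD-father and 6.63 in chow-father arrays.

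No difference between the groups was detected for the catalytic subunits of PRC2. Ezh2 read 6.37, 6.60, 6.82, 6.53 and 6.54 in HFD-father arrays 1 to 5, against 6.62, 6.55, 6.41, 6.52, 6.44 and 6.68 in chow-father arrays 1 to 6. Both the lowest and the highest Ezh2 value came from HFD-father arrays (1 and 3). The means were 6.57 ± 0.16 (SD, n = 5) in HFD-father and 6.54 ± 0.10 (SD, n = 6) in chow-father arrays, which differ by 0.03 (95% interval -0.13 to 0.20; limma, adjusted p = 0.924). Without HFD-father replicate 3 the Ezh2 difference was -0.03. It was 0.08 without HFD-father replicate 1. That array had the highest summed lymphocyte, macrophage, acinar, ductal and endothelial levels and the lowest summed islet hormone level.

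Ezh1 read 9.66, 9.76, 9.82, 9.94 and 9.81 in HFD-father arrays, against 9.76, 9.79, 9.80, 9.87, 9.84 and 9.75 in chow-father arrays. The chow-father values lay inside the HFD-father range, whose low end was again HFD-father 1. Without that array the Ezh1 difference was 0.03. Besides its immune cell signal, HFD-father 1 had the lowest summed islet hormone level (16.45). It also had the highest acinar (17.79), ductal (10.80) and endothelial (11.44) levels. The part of these signals in the Ezh1 value was not tested. Over all arrays the Ezh1 difference was -0.002, with a 95% interval from -0.12 to 0.12 (limma, adjusted p = 0.995), so the interval allows levels between 0.92 and 1.08 times those of chow-father arrays. The Ezh1 probe was bright, with 95% of all probes dimmer, while 56.2% were dimmer than the Ezh2 probe. These shares place a probe on the scale of the array and do not compare transcript abundance between genes. The Ezh2 minus Ezh1 value within an array was -3.23 ± 0.15 (SD, n = 5) in HFD-father and -3.26 ± 0.14 (SD, n = 6) in chow-father arrays, a change in balance of 0.04 on the log2 scale.

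Eed, the subunit that reads the H3K27 mark, was 8.03, 8.08, 8.06, 8.14 and 8.12 in HFD-father arrays, against 7.84, 8.02, 8.06, 8.09, 7.94 and 8.07 in chow-father arrays. All 5 HFD-father arrays lay above the chow-father mean, and the ranges overlapped. Eed thus differed by 0.08 ± 0.06 (SE; 95% interval -0.04 to 0.20; limma, adjusted p = 0.664). It was 0.08 within the set of 8 arrays and 0.11 within the set of 3.

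Suv39h1, which trimethylates H3K9 in heterochromatin, gave the lowest p of the members. Its probe of higher mean read 6.42, 6.46, 6.26, 6.27 and 6.40 in HFD-father arrays, against 6.72, 6.73, 6.79, 6.43, 6.58 and 6.55 in chow-father arrays. The chow-father mean exceeded each of the 5 HFD-father values, and chow-father 4 was the only chow-father array inside the HFD-father range. The means were 6.36 ± 0.09 (SD, n = 5) in HFD-father and 6.63 ± 0.13 (SD, n = 6) in chow-father arrays. HFD-father minus chow-father, Suv39h1 came to -0.27 ± 0.07 (SE; 95% interval -0.42 to -0.12), or 0.83 times the chow-father level. It did not pass the adjustment over all probes (limma, unadjusted p = 0.00227, adjusted p = 0.38). A lower p was found for 59 other genes, and 1.99% of all genes had a larger difference in either direction.

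The other Suv39h1 probe did not show this difference. It read 5.04, 5.47, 5.56, 5.21 and 5.18 in HFD-father arrays, against 5.27, 5.14, 5.11, 4.92, 5.28 and 5.18 in chow-father arrays, and 4 of 5 HFD-father arrays lay above the chow-father mean. Its difference was 0.14 ± 0.10 (SE), with a 95% interval from -0.07 to 0.35 (limma, adjusted p = 0.673). This probe was dimmer, with 32.8% of all probes below it against 55.6% for the first. It lies under the median brightness of all probes, the limit of the filter on dim probes, and so has no value with that filter. Within an array the first probe exceeded the second by 1.07 ± 0.26 (SD, n = 5) in HFD-father and 1.48 ± 0.14 (SD, n = 6) in chow-father arrays, and these ranges met between 1.30 and 1.38. With the mean of both probes the Suv39h1 difference was -0.06 (limma, unadjusted p = 0.372, adjusted p = 0.802). The intervals of the probes do not overlap, and the transcripts that each probe reads were not examined here.

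**Figure D2:**
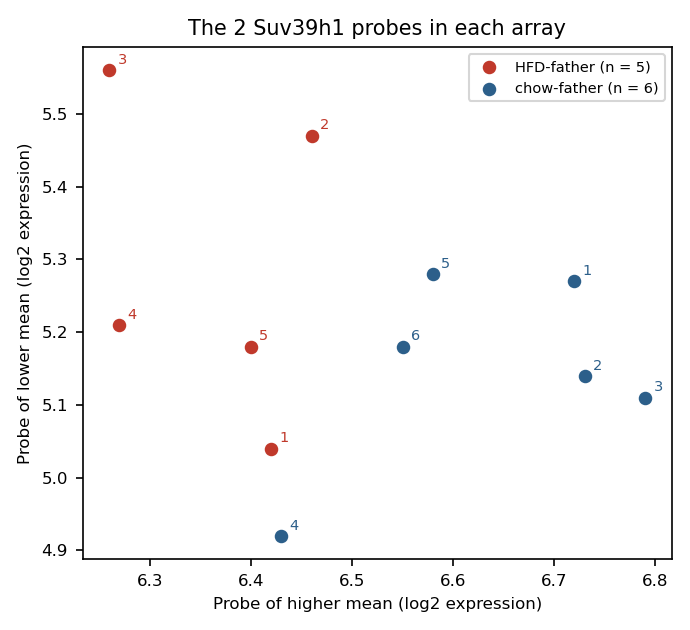
Each point is an array, numbered by replicate, placed by the Suv39h1 probe of higher mean (x, log2) and that of lower mean (y, log2), for HFD-father (red, n = 5) and chow-father (blue, n = 6) arrays. The HFD-father arrays sit at 6.26 to 6.46 on x and spread from 5.04 to 5.56 on y; the chow-father arrays sit at 6.43 to 6.79 on x and 4.92 to 5.28 on y.

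The Suv39h1 difference on the probe of higher mean was -0.31 within the set of 8 arrays and -0.17 within the set of 3. With each array left out it ran from -0.31 to -0.24. Leaving out chow-father replicate 4, the array with the lowest acinar signal, gave -0.31, and the acinar marker mean as a covariate gave -0.30. With the mean of the proliferation markers as a covariate it was -0.24 (limma, unadjusted p = 0.0101, adjusted p = 0.587). Of 23 proliferation markers measured, 18 were higher in HFD-father arrays, against 51.9% of all genes. Of the same 23, 0 had an unadjusted p under 0.05 (limma), against 8.25% of all genes. The summed level of the proliferation markers ran from 10.72 to 10.80 in HFD-father and from 10.70 to 10.78 in chow-father arrays. Of 6 Schwann markers, 4 were lower in HFD-father arrays and 4 had an unadjusted p under 0.05 (3 lower and 1 higher), against 8.25% of all genes. The groups did not overlap in the Schwann marker Gfap, which held for 0.887% of all genes. The Gfap probe was dim, with 31.3% of all probes below it. The summed level of the Schwann markers ran from 8.02 to 8.15 in HFD-father and from 8.12 to 8.26 in chow-father arrays, and its part in the Suv39h1 result was not tested.

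Suv39h2, the paralog with the same activity, was the steadiest member. It ran from 5.96 to 6.05 in HFD-father and from 5.90 to 6.04 in chow-father arrays, and differed by 0.03 (95% interval -0.06 to 0.13; limma, adjusted p = 0.848). Its spread within groups (pooled SD 0.0405) was smaller than that of all but 0.761% of genes, and the median over all genes was 0.119. The Suv39h2 minus Suv39h1 value within an array was -0.35 ± 0.08 (SD, n = 5) in HFD-father and -0.65 ± 0.17 (SD, n = 6) in chow-father arrays with the Suv39h1 probe of higher mean. With the Suv39h1 probe of lower mean it was 0.72 ± 0.23 (SD, n = 5) in HFD-father and 0.83 ± 0.17 (SD, n = 6) in chow-father arrays. The change in balance thus had opposite signs with the probes of Suv39h1, 0.30 and -0.11 on the log2 scale. The Suv39h2 probe, with 47% of all probes dimmer, also lies under the median brightness of all probes. Both changes thus rest on a probe under that limit, and the second on such a probe for each gene.

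The dimer partners Ehmt1 and Ehmt2 differed little. Ehmt1 read 7.73, 7.69, 7.63, 7.69 and 7.74 in HFD-father arrays, against 7.59, 7.48, 7.68, 7.72, 7.64 and 7.58 in chow-father arrays. Each of the 5 HFD-father values was above the mean of the chow-father arrays, and chow-father 3, 4 and 5 lay inside the HFD-father range. The Ehmt1 difference was 0.08 ± 0.05 (SE), with a 95% interval from -0.03 to 0.20 (limma, adjusted p = 0.66). Ehmt2 read 8.13, 8.17, 8.15, 8.26 and 8.24 in HFD-father arrays, against 8.29, 8.02, 8.23, 8.18, 8.23 and 8.07 in chow-father arrays. Its difference was 0.02, with a 95% interval from -0.11 to 0.15 (limma, adjusted p = 0.941), and chow-father arrays held both its lowest and its highest value. Ehmt2 minus Ehmt1 was 0.49 ± 0.06 (SD, n = 5) in HFD-father and 0.55 ± 0.08 (SD, n = 6) in chow-father arrays.

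Setdb2, an H3K9 methyltransferase, ran from 7.52 to 7.68 in HFD-father and from 7.44 to 7.66 in chow-father arrays. Its difference was 0.03, with a 95% interval from -0.09 to 0.14 (limma, adjusted p = 0.908). For the 7 members other than Suv39h1, no interval reached beyond 0.20 on the log2 scale in either direction, and the lowest adjusted p was 0.66. These intervals do not show that the levels were equal.

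**Figure D3:**
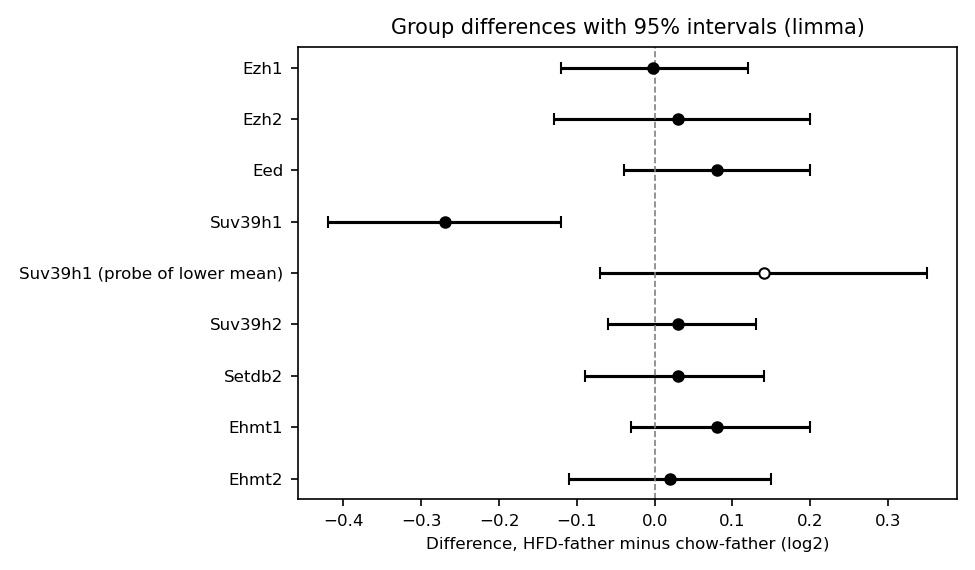
Difference in log2 expression, HFD-father minus chow-father, for each measured member with its 95% interval from limma; the open circle is the Suv39h1 probe of lower mean. The interval of the Suv39h1 probe of higher mean, -0.42 to -0.12, is the only one that does not include 0.

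Most representative probes of the members varied little from array to array. The median pooled SD within groups was 0.0768 for the members and 0.119 for all genes. Ezh2 had the widest spread of the representative probes (0.133), and 59.7% of genes had a smaller one. Suv39h1 lay at 0.117 and the other members between 0.0405 and 0.0863. The Suv39h1 probe of lower mean had 0.174, and 79.9% of genes had a smaller one. A small spread was not particular to the members. Within each group the SD was 0.04 for the related gene Ash1l and 0.05 for Phc3, though Mecom had 0.37 in HFD-father and 0.33 in chow-father arrays.

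Across the 11 arrays the 28 pairs of members were compared, and 0 pairs correlated at an adjusted p under 0.05 (permutation test with 100000 resamples, Benjamini-Hochberg over the 28 pairs), while 3 did at an unadjusted p under 0.05. After median centring of the arrays 7 pairs had an unadjusted p under 0.05 and 1 an adjusted p under 0.05. The closest pair was Eed and Suv39h2. The Suv39h2 probe lies under the median brightness of all probes and spanned only 0.15 on the log2 scale over all arrays. Pearson's r was 0.78 (permutation p = 0.00826, adjusted p = 0.231) and Spearman's rho was 0.63 (permutation p = 0.044, adjusted p = 0.405). Their r was 0.51 without the 2 arrays farthest from the Eed median (chow-father 1 and 5), 0.73 with group means removed and 0.87 within the set of 8 arrays. After median centring of the arrays the same pair had an r of 0.89 (permutation p = 0.00031, adjusted p = 0.00868), so its call depends on that setting. Setdb2 and Ehmt2 gave an r of 0.61 (permutation p = 0.0473, adjusted p = 0.411) and a rho of 0.51 (permutation p = 0.115, adjusted p = 0.428), and r was 0.46 without the 2 arrays farthest from the Setdb2 median and 0.62 within the set of 8. Eed and Suv39h1 gave an r of -0.60 (permutation p = 0.047, adjusted p = 0.411) and a rho of -0.64 (permutation p = 0.0394, adjusted p = 0.405). Without the arrays farthest from the Eed median this r was -0.58, and within the set of 8 it was -0.59, but with group means removed it was -0.37.

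No correlation of Ezh2 with the other PRC2 subunits was detected over these arrays. Ezh2 correlated with Ezh1 at an r of 0.12 (permutation p = 0.725, rho = -0.15, permutation p = 0.654) and with Eed at 0.03 (permutation p = 0.93, rho = 0.05, permutation p = 0.901). Without the 2 arrays farthest from the Ezh1 median the first r was -0.26, and it was 0.28 within the set of 8 arrays. Without the 2 farthest from the Ezh2 median the second was -0.09, and it was -0.12 within the set of 8. Over all pairs of genes measured the median size of r was 0.26, against 0.35 over the member pairs, and 1.19% of all pairs reached the size of the highest member pair.

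**Figure D4:**
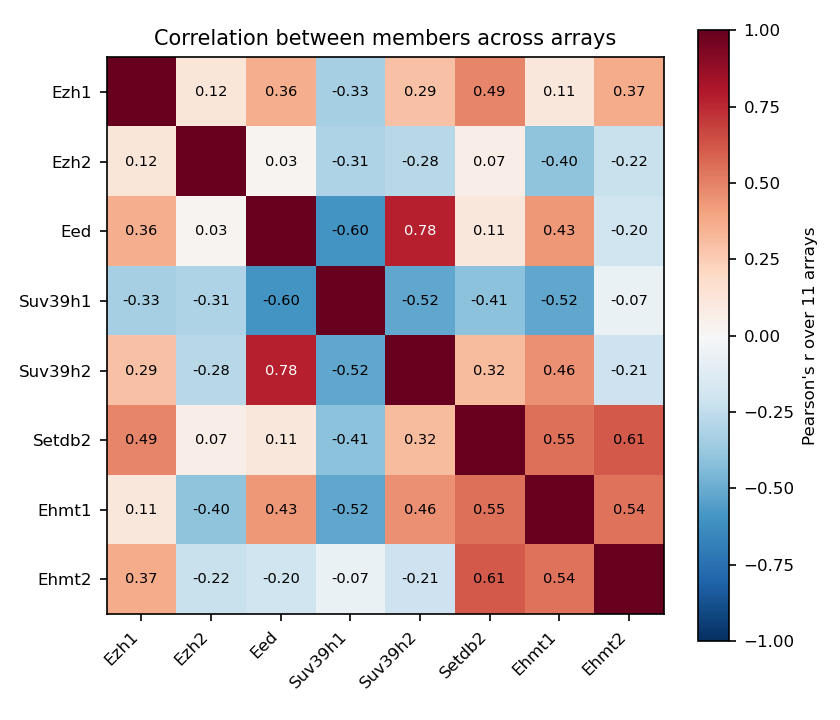
Pearson's r between members over the 11 arrays, with the probe of highest mean for each gene; red is positive and blue negative. The highest value, 0.78, joins Eed and Suv39h2, and the lowest, -0.60, joins Eed and Suv39h1.

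For each member the gene with the most similar profile was searched among the other 14323 genes. The choice of the highest r among so many genes makes these values a description. The nearest genes were Abhd15 for Ezh1 (r = 0.946), Defb24 for Ezh2 (0.88), Pts for Eed (0.984) and Rab19 for Suv39h1 (0.904). They were Or8b1 for Suv39h2 (0.958), Ttll10 for Setdb2 (0.963), Cep128 for Ehmt1 (0.905) and Zmynd11 for Ehmt2 (0.941). No other member and no gene of the related chromatin lists stood nearest to a member.

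Related chromatin genes also differed little between the groups. They include partners of these enzymes, but also 11 demethylase genes and 12 genes of H3K4 and H3K36 methylation. Over 5 lists of chromatin genes, 62 of 80 genes were measured, 0 passed at an adjusted p under 0.05 and 1 passed at an unadjusted p under 0.05 (1.61%, against 8.25% of all genes). Of the 62 genes 41 were higher in HFD-father arrays (66.1%, against 51.9% of all genes), with a median difference of 0.03 and a range from -0.18 to 0.10. Median centring of the arrays moved both: the median over all genes was then 0.03, and the medians of the 5 lists ran from 0.03 for the PRC2 accessory subunits to 0.08 for the demethylases.

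Among the accessory subunits of PRC2, 4 of 7 measured genes had higher means in HFD-father arrays and 3 had lower ones, with a median difference of 0.01. Phf19, a Tudor domain protein that brings PRC2 to chromatin, was the 1 chromatin gene with an unadjusted p under 0.05. It ran from 6.07 to 6.19 in HFD-father and from 6.15 to 6.36 in chow-father arrays, with a difference of -0.12 ± 0.05 (SE) and, in limma, an unadjusted p of 0.0431 and an adjusted p of 0.521. The Phf19 difference was -0.16 within the set of 8 arrays and -0.02 within the set of 3. Its unadjusted p was 0.114 after median centring, 0.137 after cyclic loess, 0.102 after quantile normalization and 0.0578 with a variance trend in limma, so it did not pass 0.05 in these settings. Epop, which links PRC2 to elongin, differed by -0.18 (limma, adjusted p = 0.617). The histone-binding subunits Rbbp4 and Rbbp7, chosen after their values were seen, differed by 0.07 and 0.01. The median of the accessory subunits was -0.05 within the set of 8 arrays and 0.09 within the set of 3.

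Polycomb repressive complex 1 binds the H3K27 mark and ubiquitinates histone H2A. Of its 20 measured subunit genes 12 were higher and 8 lower, with a median difference of 0.03 and 0 at an unadjusted p under 0.05. Pcgf2 differed by -0.12 (limma, adjusted p = 0.577) and the ubiquitin ligase gene Ring1 by -0.06 (adjusted p = 0.696). Each HFD-father array read below the mean of the chow-father arrays for both.

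On the H3K9 side, 10 of 12 partners and readers were higher in HFD-father arrays, with a median difference of 0.03 and 0 at an unadjusted p under 0.05. Cbx3, a heterochromatin protein 1 that binds methylated H3K9, differed by 0.10 ± 0.05 (SE; limma, adjusted p = 0.574), and all 5 HFD-father arrays lay above the chow-father mean. The lamina gene Lmnb1 differed by 0.10 (adjusted p = 0.63). The median of this list was -0.003 within the set of 8 arrays, and 0.12 within the set of 3, which has 1 HFD-father array.

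The enzymes that remove H3K9 and H3K27 methylation had a median difference of 0.06, with 7 of 11 measured genes higher and 0 at an unadjusted p under 0.05. Kdm4c, a demethylase of trimethylated H3K9, differed by 0.09 (limma, adjusted p = 0.567). Phf8, which demethylates H3K9, H3K27 and H4K20, also differed by 0.09 (adjusted p = 0.612).

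**Figure D5:**
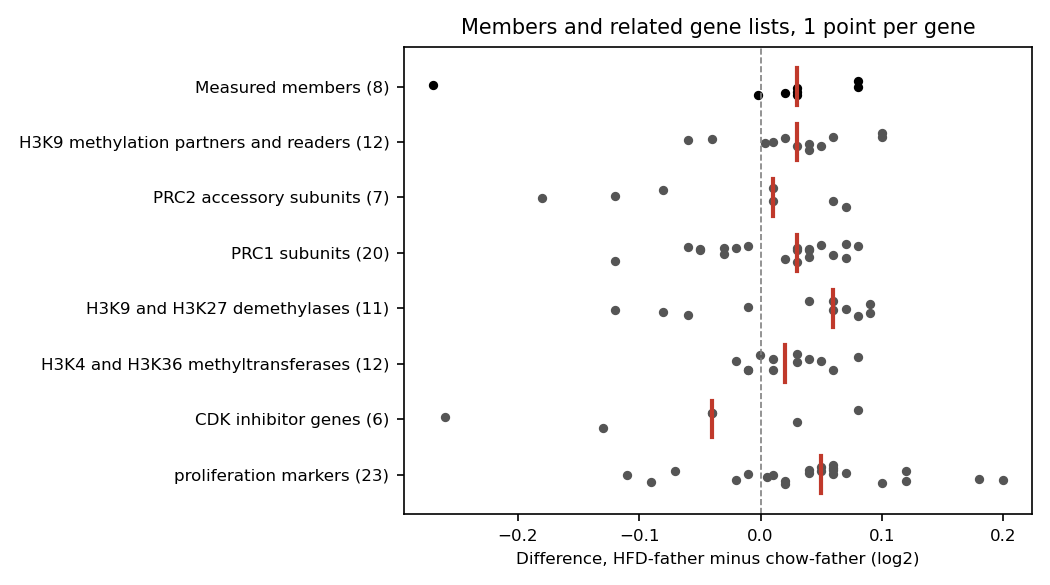
Difference in log2 expression, HFD-father minus chow-father, with 1 point per gene and a red bar at the median, for the 8 measured members and 7 related lists; the number of genes is in brackets, and height within a row has no meaning. Suv39h1 at -0.27 lies apart from the other members, which run from -0.002 to 0.08.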

How the data were processed

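Islet RNA of 11 samples was measured on 1-colour Affymetrix arrays, and the gene-level table of 27342 probes was used. Its deposited log2 values had near-equal medians and were used unchanged. RMA and MAS5 appear, with no stated role, per the submitters' processing notes; how background was removed and probes were combined is not given in the sources used here. In every probe the mean over 3 arrays equalled that over the other 8 to within 5.83e-05, while the smallest median difference over 1011 other splits was 0.0292. The values had thus been centred per set, which shrinks a group difference when a set holds unequal numbers of the groups. Exon-level features were not used, since no table pairs them with genes.

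A single symbol was given for 15097 probes, several for 323 and none here for 11922. Symbols were updated to RefSeq (GRCr8) for 15067 probes. Several probes existed for 499 of 14324 genes. The comparison used lmFit and eBayes of limma 3.58.1 in R 4.3.3, two-sided, with no covariate and no filter, and Benjamini-Hochberg adjustment over all probes at 0.05. The procedure was tested on simulated data. Arrays have no read depth, and their number limits the precision. Correlations used a permutation test, and figures matplotlib 3.10.9. The members, 15 gene lists from textbook knowledge and the tests were chosen with earlier results of these data known. All members were named, with the 2 genes of lowest p in each of 6 lists that are no marker lists, and the gene of highest r with each member.

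Alternatives were a filter on dim probes, blocks, each set alone, other normalizations, array weights, a variance trend, marker means as covariates, averaging the probes of a gene and leaving out each replicate.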

Additional observations from a re-analysis of the deposited data

Results flagged for a closer look

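In 1 of 42 groups of values examined (both groups of 21 probes), a sample stood far from the others of its group. Kmt2e, a protein of the H3K4 methyltransferase family, read 9.16 in chow-father replicate 4. Its gap to the nearest chow-father array was 0.641 of the group's range, above Dixon's critical value of 0.625. Chance gives such a gap in about 1 in 20 groups.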

How the results depend on the processing

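Under all alternatives fitted, limma called 0 genes at an adjusted p under 0.05, with 1182 genes at an unadjusted p under 0.05 in the comparison as reported. Of those, 64% were lower in HFD-father arrays, against 53.9% after quantile normalization, 37.2% after median centring, 47.1% after cyclic loess and 33.5% without dim probes. The number of members at an unadjusted p under 0.05 was 1 as reported and with each replicate left out, and 0 with the mean of a gene's probes. Suv39h1 was lower in HFD-father arrays in every setting except its probe of lower mean (0.14), an alternative chosen after seeing the data. Eed, Ehmt1 and Suv39h2 stayed above 0 in every setting that could be fitted; Suv39h2 and the Suv39h1 probe of lower mean have no value without dim probes. Ezh1 turned to 0.01 with the acinar covariate, 0.01 with array weights and 0.02 after median centring. In the set of 3, Ezh2 and Setdb2 were both -0.02. With the proliferation covariate Ezh2 and Setdb2 were both -0.002 and Ehmt2 was -0.004. Ehmt2 was also -0.01 after quantile normalization, -0.01 after cyclic loess and -0.003 in the set of 8 arrays. With each replicate left out Ezh1 ran from -0.04 to 0.03, Ezh2 from -0.03 to 0.08 and Ehmt2 from -0.01 to 0.04. List medians moved with the sets: H3K9 partners were -0.003 in the set of 8 and 0.12 in the set of 3, PRC2 accessory subunits -0.05 and 0.09, CDK inhibitors 0.03 and -0.25, and H3K4 and H3K36 methyltransferases 0.10 in the set of 3. After median centring 1 member pair, Eed and Suv39h2, correlated at an adjusted p under 0.05. Same-numbered arrays were not treated as pairs in the comparison as reported. The correlations of their deviations ran from -0.28 to 0.39. For replicate 1, at 0.39, the same-numbered chow-father array gave the highest correlation. Centring within the sets makes deviations offset each other, so these values cannot decide whether the arrays were paired. With the replicate block, Suv39h1 was -0.29 (adjusted p = 0.681), Ehmt2 was -0.0005 and 0 genes were called. The cause of these changes was not tested.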

Other observations

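Methyltransferases of the active marks H3K4 and H3K36 and their partners were measured for 12 of 18 genes, 8 with higher and 4 with lower means in HFD-father arrays. Their differences ran from -0.02 to 0.08, with a median of 0.02 and 0 at an unadjusted p under 0.05. Ash2l, a core subunit of the H3K4 methyltransferase complexes, averaged 9.11 ± 0.03 (SD, n = 5) in HFD-father and 9.04 ± 0.08 (SD, n = 6) in chow-father arrays, a difference of 0.08 (limma, adjusted p = 0.665). Kmt2e differed by 0.06 (adjusted p = 0.745).

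The CDK inhibitor genes, which hold back the cell cycle and include targets of Polycomb repression, were measured for 6 of 7 genes, with 2 higher, 4 lower and a median difference of -0.04. Cdkn2a, the gene silenced by Ezh2 in mouse beta cells, was chosen for that role after its values were seen. It ran from 5.11 to 5.79 in HFD-father and from 5.26 to 5.57 in chow-father arrays, and differed by -0.04 (95% interval -0.27 to 0.20; limma, adjusted p = 0.941). The Cdkn2a probe was dim, with 35.4% of all probes below it, which limits what this value can show. Cdkn2b differed by -0.13 (adjusted p = 0.591), with all 5 HFD-father arrays below the chow-father mean. Cdkn1a differed by -0.26 ± 0.14 (SE; adjusted p = 0.592), with 4 of 5 HFD-father arrays below the chow-father mean. The Cdkn1a difference was -0.12 within the set of 8 arrays and -0.69 within the set of 3, which has 1 HFD-father array. Leaving out HFD-father 4 gave -0.39, and leaving out HFD-father 5 gave -0.18.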
